A study of Mus musculus with 8 samples.

Results

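The genes described are 43 genes of glycolysis and of the response to low oxygen, listed by name and followed through all of their probes on Illumina MouseRef-8 arrays of mouse bone marrow mesenchymal stem cells (MSCs). Of the 43 genes, 28 belong to glucose uptake, glycolysis, lactate handling and their regulation, and 15 to the hypoxia response, out of 16593 genes named on the array. The samples were 4 arrays of MSCs transfected with Myc-L63RhoA, a Myc-tagged and constitutively active form of the small GTPase RhoA, and 4 arrays of MSCs transfected with empty vector (EV). Both groups were passage 6 cells that had received a plasmid by lipid transfection in αMEM with serum. RNA was taken 48 h after transfection by the sample records and after 3 days by the methods. The design text speaks of 4 independent experiments, but it does not say which arrays came from the same one, so a p-value here reflects variation among these arrays, which may be partly technical. The cells were a purchased stock and the plasmid was introduced transiently, so each array is a bulk measurement of transfected and untransfected cells together.

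Glycolysis splits glucose into pyruvate in the cytosol and yields ATP without oxygen, and lactate dehydrogenase turns the pyruvate into lactate to regenerate the cofactor. Under low oxygen the prolyl hydroxylases stop marking HIF-1α and HIF-2α for destruction, and the stabilized factors switch on glucose transporters, most glycolytic enzymes, pyruvate dehydrogenase kinases and genes of mitophagy, pH control and vessel growth. Bone marrow MSCs live at low oxygen in the marrow and are known for a largely glycolytic metabolism, although cultures such as these are usually kept in room air.

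HIF binds a short core in the DNA, ACGTG or GCGTG, and such cores were counted in the promoters of these genes. RefSeq promoter windows (GRCm38.p6, 250 bases before to 50 bases after a gene start) were found for 39 of the 43 genes, and Slc2a3, Epas1, Bnip3l and Ndrg1 had no entry. At least 1 core on either strand stood in a window of 34 of the 39 genes (87.2%), 23 of 27 glycolysis genes and 11 of 12 hypoxia genes, against 46.7% of all 27025 genes with a window. ACGTG alone was found in 64.1% of these genes and in 21.8% of all genes. The base composition of the windows was not matched, several genes have more than 1 window, and a match in the letters is not a binding site. ACGTG also lies inside CACGTG, the E-box of MYC and MXI1, which reads the same on both strands and is counted once on each; it was present in 17.9% of these genes and in 8.09% of all. The windows below show the range, from Ldha, with 7 matches in its first window, through Pgk1 and Hk2, with 2 each, and Pfkfb4, with 1, to Eno2, with 0, and they are the genes whose array values follow. They lie at chr7:46845554-46845853 on the plus strand (Ldha), chrX:106186850-106187149 on the plus strand (Pgk1), chr6:82774405-82774704 on the minus strand (Hk2), chr9:108991652-108991951 on the plus strand (Pfkfb4) and chr6:124769624-124769923 on the minus strand (Eno2). Capitals mark each core on either strand.
Ldha: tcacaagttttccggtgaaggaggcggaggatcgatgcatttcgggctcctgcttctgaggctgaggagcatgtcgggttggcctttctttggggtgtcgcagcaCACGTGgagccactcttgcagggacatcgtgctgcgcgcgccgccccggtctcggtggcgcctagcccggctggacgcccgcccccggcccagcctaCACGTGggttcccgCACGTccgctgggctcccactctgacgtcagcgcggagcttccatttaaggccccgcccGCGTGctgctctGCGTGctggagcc
Pgk1: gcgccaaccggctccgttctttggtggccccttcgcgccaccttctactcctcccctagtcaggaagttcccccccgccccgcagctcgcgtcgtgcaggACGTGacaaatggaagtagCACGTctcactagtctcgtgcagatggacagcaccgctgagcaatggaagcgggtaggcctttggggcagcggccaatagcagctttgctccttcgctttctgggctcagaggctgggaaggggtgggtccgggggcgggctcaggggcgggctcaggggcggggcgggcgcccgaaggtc
Hk2: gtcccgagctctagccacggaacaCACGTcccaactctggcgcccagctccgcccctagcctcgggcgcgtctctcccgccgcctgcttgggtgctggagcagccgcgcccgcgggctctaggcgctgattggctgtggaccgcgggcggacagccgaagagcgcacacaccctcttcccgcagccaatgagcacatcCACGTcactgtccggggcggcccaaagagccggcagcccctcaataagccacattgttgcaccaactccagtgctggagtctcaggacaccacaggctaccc
Pfkfb4: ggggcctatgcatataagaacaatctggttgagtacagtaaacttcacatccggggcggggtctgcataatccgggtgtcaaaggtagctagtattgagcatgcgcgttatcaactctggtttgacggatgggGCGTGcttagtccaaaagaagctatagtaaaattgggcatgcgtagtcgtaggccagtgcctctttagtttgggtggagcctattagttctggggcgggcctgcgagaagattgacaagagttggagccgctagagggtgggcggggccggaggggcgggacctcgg
Eno2: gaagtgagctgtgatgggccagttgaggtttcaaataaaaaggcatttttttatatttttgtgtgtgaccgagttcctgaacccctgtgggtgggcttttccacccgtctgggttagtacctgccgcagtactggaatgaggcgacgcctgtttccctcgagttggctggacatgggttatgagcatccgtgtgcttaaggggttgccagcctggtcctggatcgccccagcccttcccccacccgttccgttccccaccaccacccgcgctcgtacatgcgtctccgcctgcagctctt

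Of the 43 genes, 38 had a probe, 60 probes in all, and 28 were measured, meaning that a probe had a detection p under 0.05 on at least 4 of the 8 arrays. Gpi1, Eno1, Ldhb, Ankrd37 and Ero1l (now Ero1a) had no probe named for them and were not analysed here. The other 10 had probes that stayed at or near background on these arrays, which are Slc2a3, Aldoc, Slc16a1, Pfkfb3, Pdk2, Pgm2, Epas1, Bnip3, Car9 and Car12. Car9, encoding carbonic anhydrase IX and among the most oxygen-sensitive HIF targets, had 3 probes, of which 1 was detected on 2 EV arrays, 1 on 1 EV array and none on any L63RhoA array. Epas1, encoding HIF-2α, had 3 probes that were each detected on at most 1 array. Slc2a3, the high-affinity glucose transporter, and Pfkfb3, a kinase-phosphatase that makes the activator of phosphofructokinase, were detected on 0 of 8 arrays, and Bnip3, a mitophagy receptor, on 1 L63RhoA and 1 EV array. A signal at background sets only an upper bound on a gene, so these 10 genes could not be compared between groups.

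The arrays themselves set limits that touch every value below. Between 11925 and 12981 of 25697 probes were detected on the L63RhoA arrays and between 12546 and 12928 on the EV arrays, and the single Rhoa probe was detected on 0 of the 8, so Rhoa was not measured. Among MSC markers 8 of 10 with a probe were measured, including Itgb1, Cd44, Eng, Pdgfra and Pdgfrb, while Thy1 and Lepr were not detected and Ly6a had no probe; their summed intensity was 3310 to 4155 in L63RhoA and 3482 to 4137 in EV. Ptprc, Itgam, Adgre1 and Lyz2 of blood cells and Pecam1, Cdh5 and Tie1 of endothelium were at background. Cd34 was the only blood cell marker measured (297 to 404 in L63RhoA, 254 to 411 in EV), and Kdr, Tek and Vwf summed to 90.9 to 153 in L63RhoA and 86.7 to 99.3 in EV. Of 5 smooth muscle markers 2 were measured, with a summed intensity of 1662 to 1852 in L63RhoA and 825 to 1084 in EV, and 1 of them, Acta2, rose; Myh11, Cnn1 and Tagln were at background. Whether a difference of bulk RNA reflects the share of some cells or the RNA per cell cannot be told apart. L63RhoA replicate 1 and EV replicate 3 stood nearer to the opposite group on the main component of the variance within groups (48.2% of it), with scores of -8.90 for L63RhoA replicate 1 against 13.03 to 15.23 for the other L63RhoA arrays, and 9.12 for EV replicate 3 against -20.20 to -3.53 for the other EV arrays.

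None of the 28 measured genes passed an adjusted p under 0.05 in L63RhoA against EV (limma over 8360 genes, Benjamini-Hochberg), a threshold that 0.706% of all tested genes passed (0.383% higher and 0.323% lower in L63RhoA). Values are normalized log2 intensities, and the log2 fold change, written log2FC, is the mean of L63RhoA minus the mean of EV. Adjusted p-values are those of limma over all 8360 genes unless a sentence says over probes, which means over the 12349 probes. At an unadjusted p under 0.05 there were 7 of the 28 genes (25.0%), 4 higher and 3 lower in L63RhoA, next to 24.4% of all genes (13.7% higher, 10.7% lower), so the share was that of the background. The groups did not overlap in 4 of the 28 (14.3%), against 9.93% of all genes. Of the 4, 3 were higher in L63RhoA (Hk2, Pfkm and Eno2, against 5.20% of all genes) and 1 was lower (Bnip3l, against 4.72% of all genes). The 19 glycolysis genes had log2FC from -0.50 to 0.61 with a median of 0.06, and the 9 hypoxia genes from -0.46 to -0.08 with a median of -0.16, whereas the median of all genes was 0.01. At an unadjusted p under 0.05 were 6 of the 19 glycolysis genes (31.6%) and 1 of the 9 hypoxia genes (11.1%). All 9 hypoxia genes lay below 0, although with median scaling in place of quantile normalization Egln3 and Kdm3a lay above it, at 0.01 each, and with the component score as a covariate Hif1a was 0.12, Ndrg1 0.08 and Kdm3a 0.01. Of the glycolysis genes 12 lay above 0 and 7 below, while 52.2% of all genes lay above 0. The smallest adjusted p among the 28 was 0.068 (Eno2), and the largest fold in either direction was 1.53 (Pfkfb4). With 4 arrays per group the 95% confidence interval (CI) of a log2FC reached 0.25 to either side in the median over the 28 genes. Smaller changes than that could not be told from 0 for most of these genes.

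**Figure D1:**
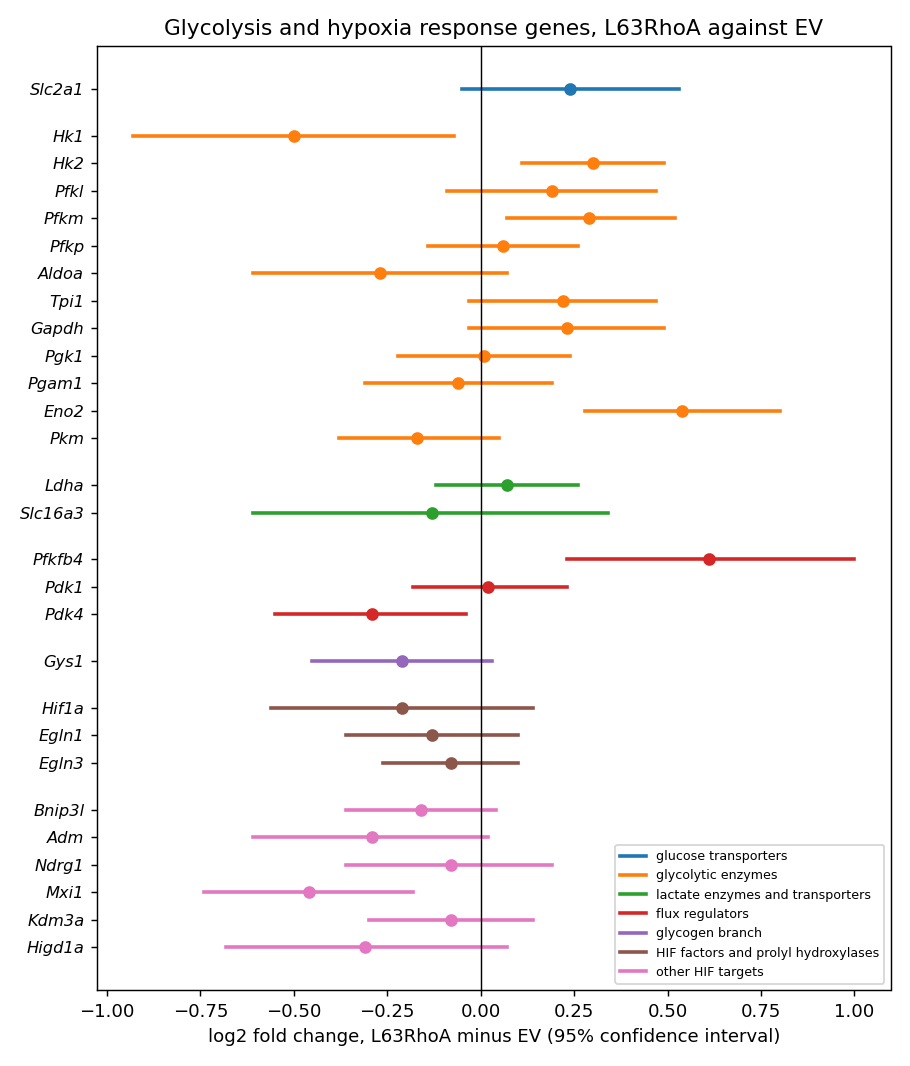
Log2FC (L63RhoA minus EV, x axis) of the 28 measured genes, one row per gene and one colour per role; points are the estimates and lines their 95% CIs from limma, unadjusted for the number of genes. The intervals of Hk2, Pfkm, Eno2 and Pfkfb4 lie above 0 and those of Hk1, Pdk4 and Mxi1 below it, and all 9 hypoxia genes have estimates below 0 as reported (with median scaling Egln3 and Kdm3a are at 0.01, and with the component score as a covariate Hif1a is at 0.12, Ndrg1 at 0.08 and Kdm3a at 0.01).

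Glucose enters through facilitative transporters, and Slc2a1, encoding GLUT1, was the only glucose transporter gene of the list that was measured. Its log2 intensity was 11.49, 11.74, 11.58 and 11.74 in L63RhoA and 11.55, 11.10, 11.66 and 11.24 in EV (log2FC 0.24, 95% CI -0.05 to 0.53, limma adjusted p = 0.27). EV replicates 2 and 4 were low and EV replicates 1 and 3 lay within the range of L63RhoA, so the groups overlapped.

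The first step traps glucose as glucose 6-phosphate. Hk2, the inducible hexokinase that sits on mitochondria and is a HIF target, gave 10.48, 10.73, 10.63 and 10.62 in L63RhoA against 10.35, 10.27, 10.29 and 10.35 in EV. All 4 L63RhoA arrays lay above all 4 EV arrays, and the EV arrays differed little among themselves (log2FC 0.30, SE 0.09, a fold of 1.23, limma adjusted p = 0.11). Hk1, the constitutive hexokinase, gave 6.31, 5.71, 5.66 and 5.90 in L63RhoA against 6.32, 6.60, 5.89 and 6.77 in EV. The Hk1 probe was dim, with deposited intensities of 133 to 170. L63RhoA replicate 1 lay among the EV arrays and EV replicate 3 among the L63RhoA arrays, so the groups overlapped by these arrays (log2FC -0.50, SE 0.20, limma adjusted p = 0.16). Without these 2 arrays the log2FC of Hk1 was -0.81 (limma adjusted p = 0.0041), in a fit where 30.1% of all genes passed. The arrays left out are those nearest to the opposite group, so this p-value is not independent support. The log2FC of Hk1 was -0.24 on the authors' processed values (limma adjusted p = 0.17) and -0.07 with the score on the main component as a covariate (limma adjusted p = 0.88).

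Phosphofructokinase, the main control point of glycolysis, is built from the products of Pfkm (muscle), Pfkl (liver) and Pfkp (platelet), and all 3 were measured. The brightest probe of Pfkm stood at 9.82, 9.88, 9.91 and 10.00 in L63RhoA and at 9.72, 9.40, 9.76 and 9.56 in EV, without overlap (log2FC 0.29, SE 0.10, limma adjusted p = 0.14). Both other probes of Pfkm were detected on all 8 arrays and had a log2FC of 0.06 and of 0.02 (0.76 and 0.94 as adjusted p over probes), so the 3 probes differed in size. Pfkp gave 8.69, 8.86, 8.78 and 8.77 in L63RhoA and 8.73, 8.63, 8.62 and 8.88 in EV, overlapping groups with a log2FC of 0.06 (95% CI -0.14 to 0.26). Another Pfkp probe had a log2FC of 0.09, and a further one was detected on none of the arrays. For Pfkl the bright probe gave a log2FC of 0.19 (limma adjusted p = 0.36), a dim one -0.23 (adjusted p = 0.45 over probes), and their mean -0.02.

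In the middle of the pathway every interval included 0. Tpi1, the triose phosphate isomerase gene, had log2 intensities of 12.73, 12.95, 12.81 and 13.11 in L63RhoA and 12.79, 12.66, 12.79 and 12.48 in EV (log2FC 0.22, limma adjusted p = 0.24), and its dimmer probes gave 0.15 and 0.05. Gapdh, whose enzyme makes the first NADH of the pathway and whose transcript is often used as a reference, stood at 12.33, 12.83, 12.73 and 12.60 in L63RhoA and at 12.47, 12.29, 12.51 and 12.32 in EV. In Gapdh, L63RhoA replicate 1 lay within the EV range and the other 3 L63RhoA arrays above it (log2FC 0.23, 95% CI -0.03 to 0.49, limma adjusted p = 0.25), while its other probe had a log2FC of 0.04. Pgk1, a phosphoglycerate kinase gene with 2 cores in the promoter printed above, was 6.62, 6.47, 6.75 and 6.77 in L63RhoA and 6.56, 6.56, 6.58 and 6.85 in EV, a log2FC of 0.01 with a 95% CI from -0.22 to 0.24. The only Pgk1 probe was dim, with deposited intensities of 147 to 194. Pgam1, a phosphoglycerate mutase gene, had a log2FC of -0.06 and Aldoa, an aldolase gene, -0.27 (limma adjusted p = 0.76 and 0.29), and in both the groups overlapped. Processed pseudogenes are common for several of these enzymes, and cross-hybridization of their probes was not tested.

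Eno2, a neuronal enolase gene that is also induced by HIF, had the smallest p of the 28 genes. Its log2 intensity was 7.74, 7.99, 7.70 and 8.05 in L63RhoA and 7.39, 7.22, 7.52 and 7.17 in EV, so every L63RhoA array lay above every EV array. The fold was 1.46 (log2FC 0.54, SE 0.12, 95% CI 0.28 to 0.80, limma adjusted p = 0.068), and the promoter window of Eno2 printed above holds no core. Eno2 passed under 7 of the 21 refitted settings, over which its limma adjusted p ran from 0.0058 to 0.28. It passed on the authors' processed values (log2FC 0.39, limma adjusted p = 0.044), as did 1.39% of all genes. The setting without further background correction gave the same values and is counted separately among the 7. Eno2 also passed without L63RhoA replicate 1 (limma adjusted p = 0.022) and without EV replicate 3 (limma adjusted p = 0.027), as did 15.1% and 11.0% of all genes. With the component score as a covariate, which cannot be separated from the groups, its log2FC was 0.37 (limma adjusted p = 0.28). Eno1, the enolase gene that most cells use, had no probe, so the balance of the isoforms could not be seen.

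At the lower end, Pkm, encoding the pyruvate kinase of most tissues, gave 12.92, 12.80, 12.89 and 12.84 in L63RhoA against 13.03, 13.05, 12.82 and 13.21 in EV (log2FC -0.17, 95% CI -0.38 to 0.05, limma adjusted p = 0.30). Ldha, encoding the lactate dehydrogenase subunit that favours lactate, and holding the most cores of the windows shown, gave 13.10, 13.20, 13.10 and 13.19 in L63RhoA against 13.17, 12.99, 13.16 and 12.99 in EV. EV replicates 1 and 3 lay among the L63RhoA arrays and EV replicates 2 and 4 below them, and the log2FC of Ldha was 0.07 with a narrow interval from -0.12 to 0.26. Slc16a3, encoding the lactate exporter MCT4, was at the edge of detection (2 L63RhoA and 3 EV arrays), at 5.02, 4.92, 4.65 and 4.52 in L63RhoA and 4.69, 5.40, 4.35 and 5.20 in EV. Its log2FC of -0.13 had an interval from -0.61 to 0.34, and another of its probes gave 0.11.

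Of the enzymes that steer the flux, 3 were measured, with log2FC from -0.29 to 0.61. Pfkfb4, a bifunctional enzyme gene that sets the level of fructose 2,6-bisphosphate, stood at 6.57, 6.99, 6.71 and 7.12 in L63RhoA and at 6.39, 5.99, 6.63 and 5.92 in EV. L63RhoA replicate 1 lay just below EV replicate 3, so the groups overlapped through those arrays (fold 1.53, log2FC 0.61, SE 0.18, limma adjusted p = 0.11). This Pfkfb4 probe was dim, with deposited intensities of 122 to 216. The other Pfkfb4 probe was detected on no L63RhoA array and on 1 EV array, so it was not compared. On the authors' processed values the log2FC of Pfkfb4 was smaller, at 0.33 (limma adjusted p = 0.092). Without L63RhoA replicate 1 or without EV replicate 3 it passed (log2FC 0.70 and 0.75, limma adjusted p = 0.035 and 0.032), next to 15.1% and 11.0% of all genes, and with the score on the main component as a covariate its log2FC was 0.25 (adjusted p = 0.48). Pdk4, a pyruvate dehydrogenase kinase gene that fasting and fatty acids induce, was 6.82, 6.45, 6.58 and 6.60 in L63RhoA and 7.06, 6.65, 6.93 and 6.98 in EV (log2FC -0.29, SE 0.12, limma adjusted p = 0.16), with EV replicate 2 inside the L63RhoA range. Pdk1, the kinase gene of the same family that HIF-1 induces to keep pyruvate out of mitochondria, was 8.44, 8.43, 8.23 and 8.40 in L63RhoA and 8.34, 8.50, 8.28 and 8.28 in EV. The log2FC of Pdk1 was 0.02, with an interval from -0.18 to 0.23, and the groups overlapped throughout. On the glycogen branch Gys1, the muscle glycogen synthase gene, was dim at 5.20, 5.08, 5.04 and 4.99 in L63RhoA and 5.38, 5.05, 5.25 and 5.48 in EV (log2FC -0.21, limma adjusted p = 0.25).

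**Figure D2:**
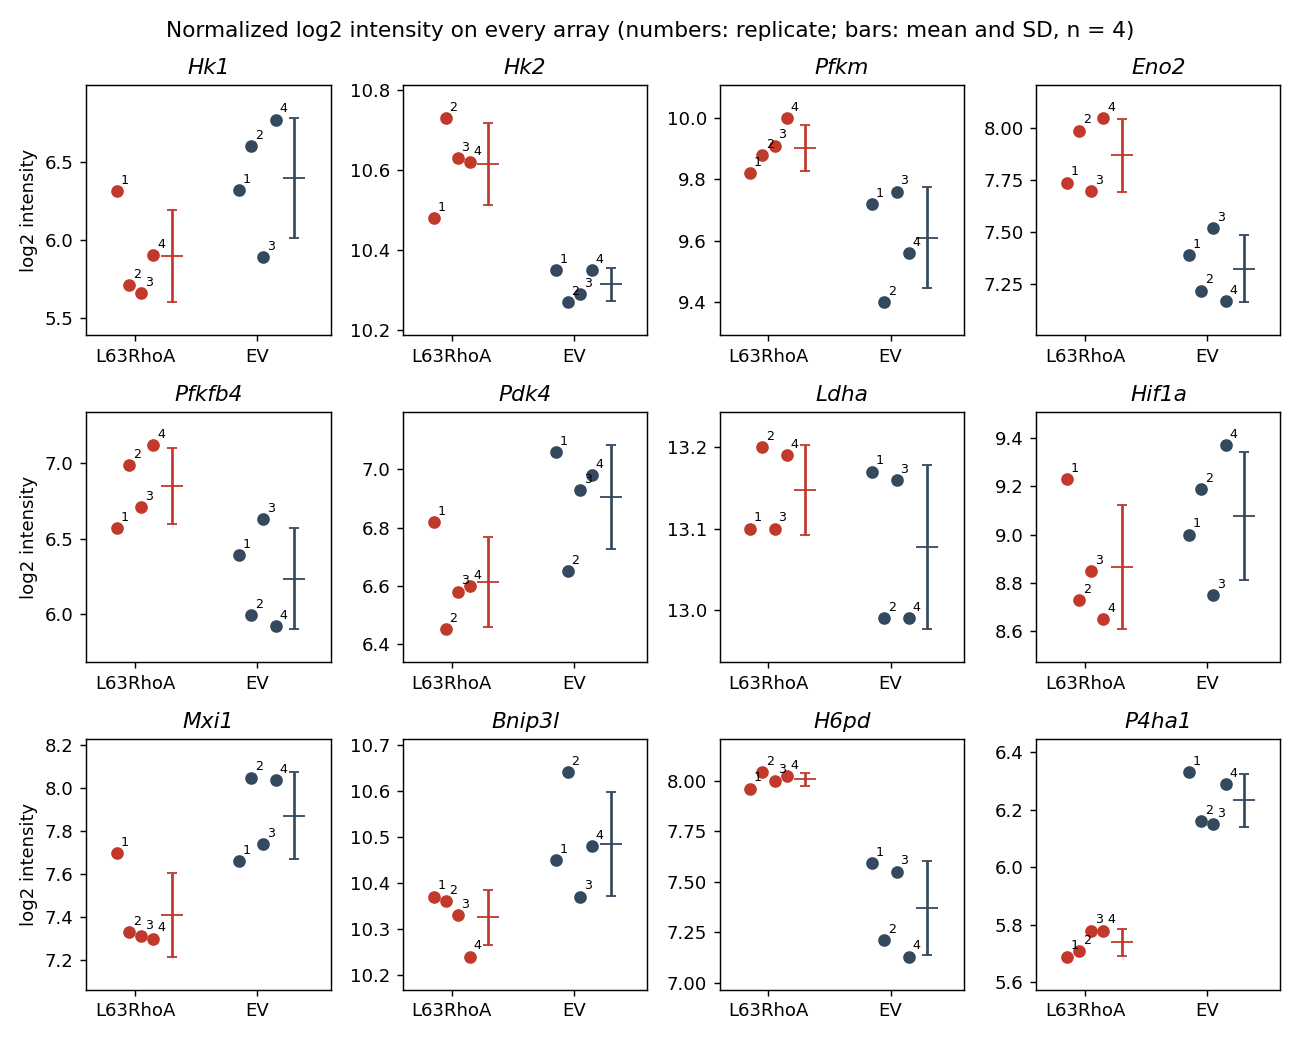
Normalized log2 intensity (y axis, a separate range for each gene) on each of the 4 L63RhoA and 4 EV arrays for 10 of the measured genes and for H6pd and P4ha1; points carry their replicate number, and bars give the mean and SD (n = 4). L63RhoA lies above EV on every array for Hk2, Pfkm, Eno2 and H6pd and below it for Bnip3l and P4ha1, and in Hk1, Pfkfb4, Hif1a and Mxi1 the groups overlap, most widely in Hif1a.

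Oxygen sensing begins with the HIF subunits and their hydroxylases. Hif1a, encoding HIF-1α, which is set mainly by protein stability, had log2 intensities of 9.23, 8.73, 8.85 and 8.65 in L63RhoA and 9.0, 9.19, 8.75 and 9.37 in EV. L63RhoA replicates 1 and 3 lay within the EV range and EV replicates 1, 2 and 3 within the L63RhoA range (log2FC -0.21, 95% CI -0.56 to 0.14, limma adjusted p = 0.41). Without L63RhoA replicate 1 and EV replicate 3 the log2FC of Hif1a was -0.44 (limma adjusted p = 0.022), in a fit where 30.1% of all genes passed. With the component score as a covariate the log2FC of Hif1a was 0.12 (limma adjusted p = 0.71), so its sign depended on the setting. Egln3, encoding the prolyl hydroxylase PHD3 and itself a HIF target, was 8.94, 8.99, 9.01 and 9.11 in L63RhoA and 9.08, 9.04, 9.16 and 9.07 in EV. The log2FC of Egln3 was -0.08 with an interval from -0.26 to 0.10, and the arrays of both groups lay close together. The other Egln3 probe was detected on no L63RhoA array and on 3 EV arrays, so it was not compared. For Egln1, encoding PHD2, the main oxygen sensor, the brightest probe gave a log2FC of -0.13 (limma adjusted p = 0.45). Another Egln1 probe, detected on 3 L63RhoA and 4 EV arrays, gave -0.49 (adjusted p = 0.11 over probes, where 0.640% of probes passed). On this dim probe the groups did not overlap, at 4.54 to 5.07 in L63RhoA and 5.10 to 5.53 in EV.

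Among HIF targets outside glycolysis, Mxi1 had the smallest p. Mxi1, encoding a MYC antagonist that lowers mitochondrial mass under low oxygen, gave 7.70, 7.33, 7.31 and 7.30 in L63RhoA against 7.66, 8.05, 7.74 and 8.04 in EV (log2FC -0.46, SE 0.13, limma adjusted p = 0.11). L63RhoA replicates 2 to 4 were nearly equal, and L63RhoA replicate 1 alone reached the lowest EV array. Mxi1 passed without L63RhoA replicate 1 (log2FC -0.56, limma adjusted p = 0.022) and without EV replicate 3 (-0.51, adjusted p = 0.047), where 15.1% and 11.0% of all genes passed. With the component score as a covariate its log2FC was -0.22 (limma adjusted p = 0.45). Adm, encoding the vasodilator peptide adrenomedullin, was 4.48, 4.60, 5.07 and 4.83 in L63RhoA and 5.07, 5.04, 5.25 and 4.79 in EV, near background and detected on 2 L63RhoA and 4 EV arrays (log2FC -0.29, limma adjusted p = 0.23). Ndrg1, a stress-responsive gene induced strongly by hypoxia, was 11.10, 10.90, 10.60 and 10.72 in L63RhoA and 10.74, 10.94, 10.88 and 11.08 in EV. The log2FC of Ndrg1 was -0.08 and that of its other probe -0.10, both with groups that overlapped.

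Bnip3l, encoding the mitophagy receptor NIX, was the only hypoxia gene whose groups did not overlap on its brightest probe. Bnip3l stood at 10.24 to 10.37 in L63RhoA and 10.37 to 10.64 in EV (log2FC -0.16, limma adjusted p = 0.28). The nearest arrays, L63RhoA replicate 1 and EV replicate 3, were equal to the second decimal. For Kdm3a, a histone demethylase gene, the log2FC was -0.08, and its other probes gave 0.14 and -0.05. Higd1a, encoding a mitochondrial hypoxia-inducible protein, had a log2FC of -0.31 with overlapping groups (limma adjusted p = 0.28).

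Averaged over the 19 glycolysis genes, each centred on its mean over the 8 arrays, the log2 intensity was 0.04, 0.07, -0.02 and 0.04 in L63RhoA and 0.01, -0.08, -0.06 and 0.01 in EV. These means overlapped and spanned little, over genes that lay on either side of 0. Over the 9 hypoxia genes the same mean was -0.02, -0.11, -0.12 and -0.14 in L63RhoA and 0.11, 0.17, -0.01 and 0.14 in EV. L63RhoA replicate 1 and EV replicate 3 met in the middle and the remaining arrays stood apart by group. L63RhoA replicate 1 was the highest or lowest L63RhoA array in 24 of the 28 genes (85.7%), against 69.0% of all genes, and EV replicate 3 was so within EV in 17 of 28 (60.7%), against 62.5% of all genes. The part of these arrays in the results was not tested beyond leaving them out: without both, 10 of the 28 genes passed (35.7%), but so did 30.1% of all genes. With array weights 8 of the 28 (28.6%) and 25.1% of all genes passed. The 10 that passed without both arrays were Slc2a1, Hk2, Pfkm, Gapdh, Eno2 and Pfkfb4, higher in L63RhoA, and Hk1, Aldoa, Hif1a and Mxi1, lower in L63RhoA.

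**Figure D3:**
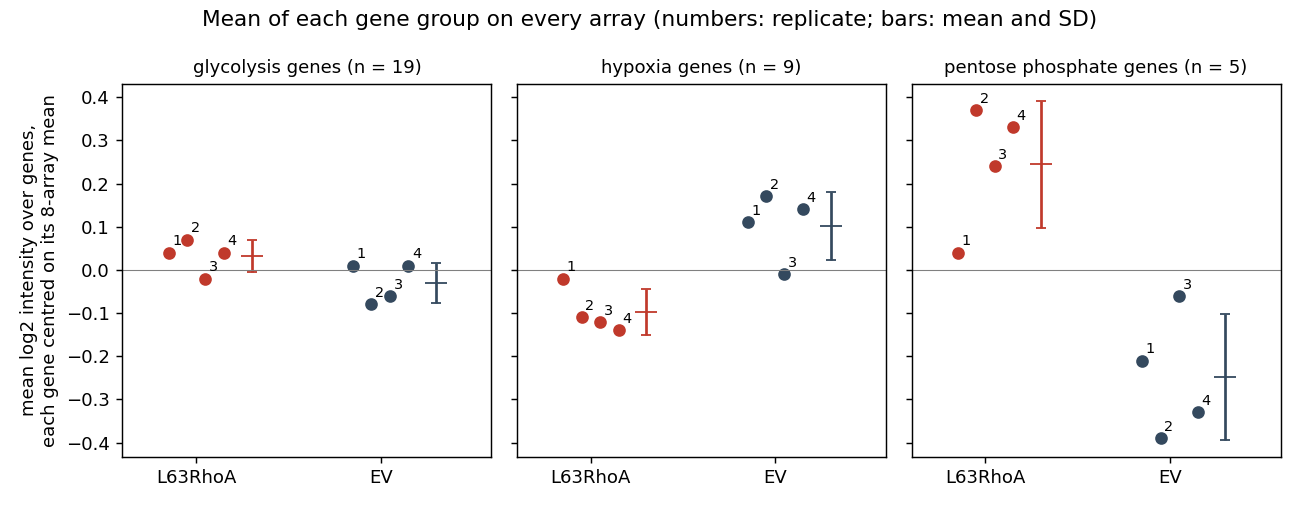
Mean log2 intensity over the 19 glycolysis genes, the 9 hypoxia genes and 5 pentose phosphate genes on each array (y axis), after centring each gene on its mean over the 8 arrays; points carry the replicate number, and bars give the mean and SD of the 4 arrays of a group. The glycolysis means lie within 0.08 of 0, the hypoxia means run from -0.14 to -0.02 in L63RhoA and from -0.01 to 0.17 in EV, and the pentose phosphate means from 0.04 to 0.37 in L63RhoA and from -0.39 to -0.06 in EV.

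Lists of neighbouring genes gave the setting of these values. The pentose phosphate pathway branches off at glucose 6-phosphate and makes NADPH and ribose. Of 8 such genes 5 were measured, and their median log2FC was 0.51. Of the 5, 2 rose and none fell, where 0.383% of all genes rose and 0.323% fell. All 5 had an unadjusted p under 0.05, against 24.4% of all genes. G6pdx, Pgd and Rpe were not measured, so their RNA could not be compared between the groups. H6pd, encoding the hexose 6-phosphate dehydrogenase of the endoplasmic reticulum, rose to 7.96, 8.04, 8.0 and 8.02 in L63RhoA, against 7.59, 7.21, 7.55 and 7.13 in EV (log2FC 0.64, SE 0.12, limma adjusted p = 0.042). Rpia, the ribose 5-phosphate isomerase gene, rose to 6.70, 6.70, 6.76 and 6.95 in L63RhoA, against 6.37, 6.27, 6.26 and 6.18 in EV (log2FC 0.51, SE 0.09, limma adjusted p = 0.039). In both genes every L63RhoA array lay above every EV array, as in 5.20% of all genes. On the authors' processed values the log2FC was 0.46 for H6pd and 0.28 for Rpia (limma adjusted p = 0.020 and 0.037). The Rpia probe was dim, with deposited intensities of 133 to 195. Taldo1, Pgls and Tkt, for transaldolase, phosphogluconolactonase and transketolase, had log2FC of 0.45, 0.60 and 0.27 (limma adjusted p = 0.079, 0.13 and 0.20). Without any one of L63RhoA replicates 2, 3 or 4 or of EV replicates 2 or 4, neither H6pd nor Rpia passed (limma adjusted p of 0.11 to 0.14), and Rpia also missed without EV replicate 1 (adjusted p = 0.073).

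Of 37 further genes of glycolysis and pyruvate use 15 were measured and none passed with limma (median log2FC -0.03). At an unadjusted p under 0.05 were 4 of the 15 (26.7%), near the 24.4% of all genes. Pdp2, a pyruvate dehydrogenase phosphatase gene, had a log2FC of 0.44 (limma adjusted p = 0.11). It was the only gene of the 15 without overlap (6.67%, against 9.93% of all genes). Dld, encoding a dehydrogenase shared by pyruvate dehydrogenase and its relatives, had a log2FC of -0.54, and Adpgk, an ADP-dependent glucokinase gene, -0.64 (limma adjusted p = 0.15 and 0.17). Of 13 glycogen genes 7 were measured and none passed. At an unadjusted p under 0.05 was 1 of the 7 (14.3%, against 24.4% of all genes), Pgm3, an acetylglucosamine phosphomutase gene. The Pgm3 probe was not above background on any L63RhoA array but was on all 4 EV arrays. It met the detection filter only through EV, where it was higher, so its p was not read as a difference. Of 14 genes of the HIF machinery 10 were measured and none passed. At an unadjusted p under 0.05 was 1 of the 10 (10.0%, against 24.4% of all genes). This gene was Eloc, an elongin gene of the VHL ubiquitin ligase (log2FC 0.28, limma adjusted p = 0.17). Arnt, encoding HIF-1β, had a log2FC of 0.18, and Egln2, the third prolyl hydroxylase gene, -0.37 (limma adjusted p = 0.41 and 0.29).

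Of 40 further hypoxia-responsive genes 32 were measured, with a median log2FC of -0.02. Of the 32, 1 fell and none rose, where 0.323% of all genes fell and 0.383% rose. P4ha1, encoding a prolyl hydroxylase subunit of collagen and a HIF target, fell to 5.69, 5.71, 5.78 and 5.78 in L63RhoA, against 6.33, 6.16, 6.15 and 6.29 in EV. The groups of P4ha1 were well separated and each varied little (log2FC -0.49, SE 0.08, limma adjusted p = 0.032), yet without any one of L63RhoA replicates 2, 3 or 4 or of EV replicates 1, 2 or 4 its adjusted p was 0.087 to 0.13. The P4ha1 probe was dim, with deposited intensities of 129 to 160. On the authors' processed values its log2FC was -0.22 (limma adjusted p = 0.050). Selenbp1 and Lox, the lysyl oxidase gene, had log2FC of -0.54 and -0.43, and Stc2, encoding the hormone stanniocalcin 2, 0.51 (limma adjusted p = 0.072, 0.085 and 0.072), each without overlap between the groups. The groups did not overlap in 25.0% of the 32 genes, against 9.93% of all genes. The list held 13 genes at an unadjusted p under 0.05 (6 higher and 7 lower in L63RhoA, 40.6% of the 32), where all genes had 24.4% (13.7% higher and 10.7% lower).

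**Figure D4:**
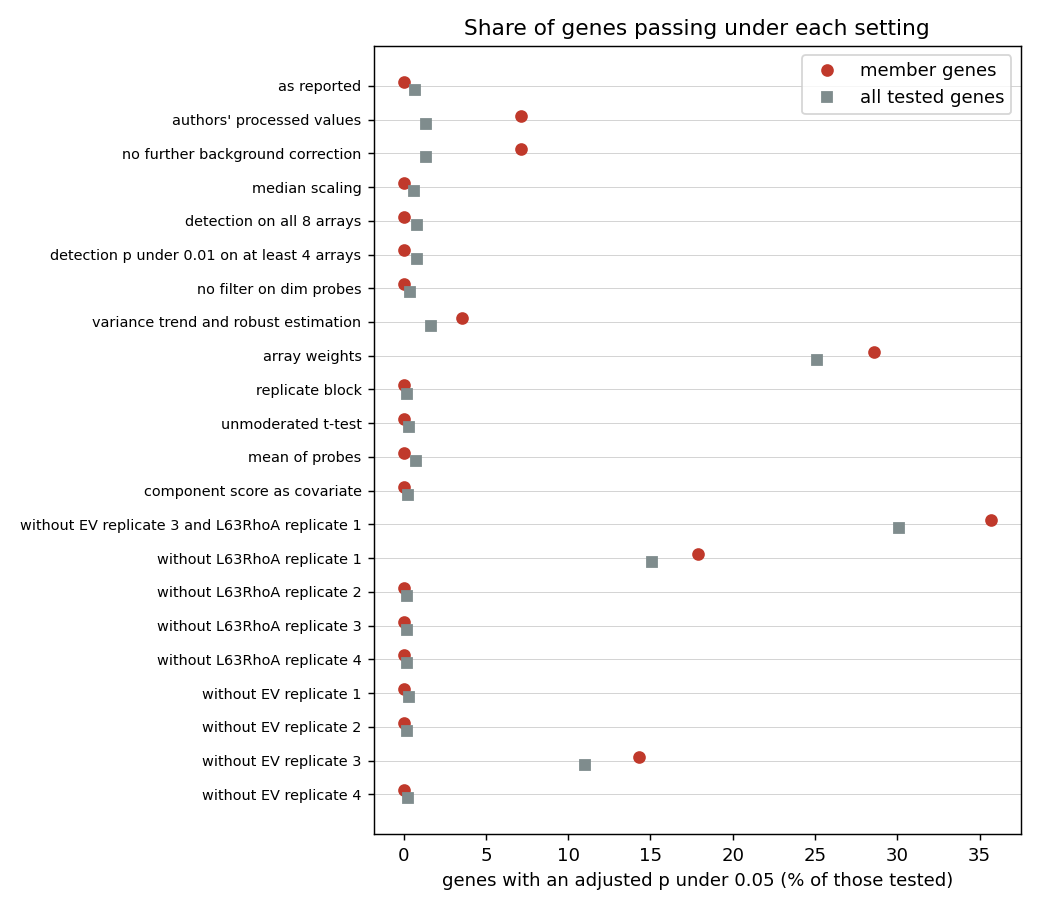
Share of genes with an adjusted p under 0.05 (x axis, % of the genes tested) as reported and under each of the 21 refitted settings (rows); circles are the glycolysis and hypoxia genes and squares all tested genes. The shares are 0 and 0.706% as reported, and both are highest without EV replicate 3 and L63RhoA replicate 1, at 35.7% and 30.1%.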

How the data were processed

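Total RNA was labelled and hybridized to Illumina MouseRef-8 v2.0 BeadChips and scanned with iScan. The authors deposited signal intensities on a linear scale from GenomeStudio (version not given in the sources used here), which are described as background corrected although the lowest is 75.2, with a deposited detection p-value per probe and array. The authors' processed table held log2 values, quantile normalized, with a median of 6.64 in every column. Ordered values of 1 of its arrays matched log2 of quantile normalized intensities within 0.00041.

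Probes were named through the platform annotation, updated by gene identifier with the RefSeq table of GRCm38 (23978 of 25697 probes with 1 symbol, 1719 with none). Intensities were background corrected from detection p-values and quantile normalized (neqc, limma 3.58.1, R 4.3.3, offset 16). A probe was kept if detected (p under 0.05) on 4 or more of the 8 arrays (12349 probes), a gene was its brightest named probe (8360 genes), and L63RhoA was compared with EV by limma (two-sided) with Benjamini-Hochberg adjustment over all genes. Probes were also fitted over all 12349. The fits were tested on simulated data in which each gene varied independently. That simulation held no component shared by the genes of an array, so it does not cover the array differences described above.

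The members and lists were chosen with earlier results of these data known. Values on every array are given for the 12 members with the smallest p and for a fixed set of well-known ones, and up to 4 genes per further list are named; other genes named were chosen after their values were seen. Alternatives were the processed values, background correction, scaling, detection filters, a variance trend, array weights, a replicate block, an unmoderated t-test, probe means, a component score, the paper's threshold and left-out arrays. The number of arrays limits the precision.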

Additional observations from a re-analysis of the deposited data

Results flagged for a closer look

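In 3 groups of 4 arrays, of 62 examined (28 measured genes, H6pd, Rpia and P4ha1, each in L63RhoA and in EV), a single array stood far from the other 3 of its group; chance alone gives this in about 1 of 20 groups. Mxi1 was 7.70 in L63RhoA replicate 1, against 7.30 to 7.33 in the other L63RhoA arrays. Pdk1 was 8.23 in L63RhoA replicate 3, against 8.40 to 8.44 in the others. Pgk1 was 6.85 in EV replicate 4, against 6.56 to 6.58 in the other EV arrays.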

How the results depend on the processing

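Of the 28 measured genes, 17 passed under none of 21 refitted settings and 11 under at least 1. The processed values and the setting with background correction omitted gave the same results, so they are not independent of each other. The count of all genes passing was 59 as reported, 116 on the deposited processed values and also with the correction for background omitted, 139 with a variance trend, 2098 with array weights, 27 with the unmoderated t-test (0 of the 28), 21 with the component score as a covariate, 2516 without EV replicate 3 and L63RhoA replicate 1 together, 11 at the paper's threshold (over 2-fold, false discovery rate under 0.20) and 17 to 1260 when 1 array was left out (917 without EV replicate 3, 1260 without L63RhoA replicate 1). For the glycolysis genes the count was 0 as reported, 2 on the processed values and with background correction omitted (Hk2, Eno2 in each), 1 with a variance trend, 7 with array weights, 8 without both arrays and 0 to 4 when 1 was left out (3 without EV replicate 3, 4 without L63RhoA replicate 1). For the hypoxia genes it was 0 as reported, 1 with array weights, 2 without both arrays and 0 to 1 when 1 was left out. The median log2 fold change moved from 0.06 to 0.10 for glycolysis genes with median scaling, where the median of all genes moved as far (0.01 to 0.05), and was 0.02 with the mean of probes and 0.03 without EV replicate 3. It moved from -0.16 to -0.08 for hypoxia genes on the processed values and with background correction omitted. The cause of these shifts was not tested. The replicate block left 18 of all genes and 0 of the 28; deviations of same-numbered arrays correlated at -0.23 to 0.27, and 1 of 8 arrays matched its own number best, so the numbers were not taken as pairs. With the block H6pd and Rpia had adjusted p of 0.13 and 0.14 and P4ha1 0.13, and all 3 also missed with median scaling and with the component score (H6pd and Rpia also with the t-test, and H6pd with no filter on dim probes).

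Signs changed in 11 genes, none of which passed as reported. With the component score as a covariate, which differs between the groups and cannot be separated from them, the log2 fold change was 0.03 for Aldoa, 0.05 for Pgam1, -0.01 for Ldha, 0.30 for Slc16a3, 0.12 for Hif1a, 0.08 for Ndrg1 and 0.01 for Kdm3a. With median scaling it was 0.00 for Pgam1, 0.01 for Egln3 and 0.01 for Kdm3a, and with the mean of probes -0.02 for Pfkl and 0.00 for Kdm3a. Pdk1 was 0.00 with array weights and -0.02 without both arrays. Pgam1 (-0.14) and Slc16a3 (-0.40) kept without both arrays the sign they had as reported. Leaving out 1 array gave -0.03 to 0.08 for Pgk1, -0.12 to 0.03 for Pgam1, -0.32 to 0.03 for Slc16a3 and 0.00 to 0.07 for Pdk1.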
